A study of Mus musculus with 93 samples.

Results

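The EphB receptors and ephrin-B ligands were described here as 7 genes of the 24514 gene symbols in the count table. They were chosen by name, as the listed autosomal genes of the family. No measured value entered that rule, but earlier results of these data were known when it was made. The receptors were Ephb1, Ephb2, Ephb3, Ephb4 and Ephb6, and the ligands were Efnb2 and Efnb3. RNA-seq was performed on GFP+ and RFP+ cells sorted from mouse embryos and from spheroids made of embryonic stem cells, in 93 libraries of 10 cells each. All 4 groups carried the Hcn4-GFP, Tbx1-Cre and Ai9 alleles. GFP reports Hcn4, a gene of the first heart field, and RFP is the lasting label that Tbx1-Cre leaves in the anterior second heart field and in its descendants. Embryos gave 5 libraries of GFP+ and 4 of RFP+ cells, and spheroids, collected at day 5.5, gave 38 of GFP+ and 46 of RFP+ cells. For the embryos the titles name stage E8.5, whereas the protocol names E7.75. The spheroids came from an embryonic stem cell line of the same genotype and were induced with growth factors named in the labels as Activin A, Bmp4 and Wnt proteins, with no combination or dose assigned to a library.

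Eph receptors are receptor tyrosine kinases whose ligands, the ephrins, stay attached to the surface of the neighbouring cell. Contact between both cells therefore starts signalling in both directions, forward through the receptor and reverse through the cytoplasmic tail of an ephrin-B, and the usual outcome is repulsion, adhesion or the sorting of cells into separate territories. In the cardiovascular system Efnb2 is a classical arterial gene and Ephb4 its venous receptor, and mouse embryos that lack either gene fail in vessel remodelling and heart development. EphB2 and EphB3 are partly redundant receptors for ephrin-B ligands, EphB6 lacks kinase activity, and ephrin-B3 is best known as a midline guidance cue in the nervous system.

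The members Efnb2, Ephb2 and Ephb4, which differed between the spheroid populations, had a RefSeq promoter entry on GRCm38.p6, from 250 bases before to 50 bases after the gene's start. These 300-base windows are shown to give the regulatory context of the values that follow, with matches to the E-box CACCTG in capitals, read on both strands.
Efnb2, chr8:8661193-8661492, minus strand: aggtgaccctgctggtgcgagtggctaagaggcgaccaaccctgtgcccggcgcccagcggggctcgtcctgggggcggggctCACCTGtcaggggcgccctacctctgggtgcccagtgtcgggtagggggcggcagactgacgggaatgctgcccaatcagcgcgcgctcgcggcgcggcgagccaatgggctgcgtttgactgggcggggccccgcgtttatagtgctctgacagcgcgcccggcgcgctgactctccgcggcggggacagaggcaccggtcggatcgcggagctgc
Ephb2, chr4:136835963-136836262, minus strand: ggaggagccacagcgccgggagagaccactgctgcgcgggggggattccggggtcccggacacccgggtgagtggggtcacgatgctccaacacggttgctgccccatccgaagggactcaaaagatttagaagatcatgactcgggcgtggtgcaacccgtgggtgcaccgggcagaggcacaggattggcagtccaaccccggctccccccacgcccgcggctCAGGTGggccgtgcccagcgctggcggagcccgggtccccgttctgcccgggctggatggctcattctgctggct
Ephb4, chr5:137349859-137350158, plus strand: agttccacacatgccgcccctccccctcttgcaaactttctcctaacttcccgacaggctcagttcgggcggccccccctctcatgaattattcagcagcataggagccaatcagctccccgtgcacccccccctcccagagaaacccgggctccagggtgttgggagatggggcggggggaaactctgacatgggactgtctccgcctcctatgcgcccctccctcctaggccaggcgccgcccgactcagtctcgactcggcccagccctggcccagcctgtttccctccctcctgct
The Efnb2 window held 1 CACCTG and the Ephb2 window held 1 match on the opposite strand, as CAGGTG. In the Ephb4 window none of the 4 motifs searched was found, which were CACCTG, the T-box sequence AGGTGT, the GATA sequence AGATAA and the TCF/LEF sequence CTTTGA. Among 27025 RefSeq promoter windows of the same length, 20.0% held CACCTG, 13.9% AGGTGT, 11.4% AGATAA and 16.2% CTTTGA, so that a match in 1 window is a common event. The windows shown were rich in C and G. Over all 6 members with a promoter entry, GC ran from 55.7% in Ephb1 to 76.3% in Ephb6. The Efnb2 window had 72.3% GC and 35 CpG, the Ephb2 window 68.7% and 24, and the Ephb4 window 64.7% and 14, against medians of 52.7% and 7 over all windows.

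Several libraries stood apart and touch every result. Totals ran from 712732 to 2525460 reads in embryo GFP+ libraries, from 1246546 to 1479957 in embryo RFP+ libraries, and from 445071 to 5658882 in spheroid RFP+ libraries. In spheroid GFP+ libraries they ran from 828193 to 4371849, apart from the library of well C9, which had 6288 reads and no read of any member. The embryo GFP+ libraries detected 6189 to 8302 genes against 10263 to 13052 in embryo RFP+ libraries, and they differed from each other more, with a chi-square per degree of freedom of 63.9 to 102.6 between pairs against 8.71 to 16.7. Of 2229 genes with a mean of 8 to 25 CPM (counts per 1000000 reads, after TMM normalisation) in embryo GFP+ cells, 94.5% had no read in at least 1 of the 5 libraries, against 17.5% of 2873 such genes in embryo RFP+ cells. In 7 plate rows the spheroid RFP+ wells of columns 3 and 4 held near-identical libraries, with r of 0.948 to 0.986 between log2 CPM, whereas no other pair of spheroid RFP+ wells exceeded 0.931. They still differed by more than sampling noise, with a chi-square per degree of freedom of 1.37 to 2.39 against 2.68 to 14.2 for other pairs. They were counted separately, also in the permutation and Fisher tests, although whether they are independent samples is not known. Spheroid RFP+ wells lay in plate columns 1 to 6 and spheroid GFP+ wells in columns 7 to 11, so population and column cannot be told apart. The sources do not assign wells to embryos or cultures, so p-values measure only the spread between these wells.

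Defining markers were checked first. Hcn4, the gene that GFP reports, was at 7.32 ± 4.42 CPM (SD) in spheroid GFP+ and 0.447 ± 0.672 CPM in spheroid RFP+ libraries. Tbx1, the gene behind the RFP label, was at 0.0301 ± 0.131 CPM in spheroid GFP+ and 2.52 ± 1.84 CPM in spheroid RFP+ libraries. It had reads in 2 of 38 and 41 of 46 of them. In embryos Hcn4 had reads in 5 of 5 GFP+ and 1 of 4 RFP+ libraries, and Tbx1 in 0 of 5 and 3 of 4. Cardiomyocyte genes (8 genes, among them Tnnt2, Myl7 and Hcn4) summed to 16272 to 48597 CPM in embryo GFP+ libraries and to 778 to 1768 CPM in embryo RFP+ libraries. In spheroids they summed to a median of 41.4 CPM in GFP+ libraries, with a highest value of 972 CPM, and of 42.1 CPM in RFP+ libraries. The means of these spheroid sums were 153 ± 272 CPM (SD) in GFP+ and 47.0 ± 25.2 CPM in RFP+ libraries. Every spheroid GFP+ library lay below every embryo GFP+ library. The 10 endothelial genes summed to 37.1 ± 43.6 CPM (SD, n = 5) in embryo GFP+ cells, where Pecam1, Cdh5, Tie1, Erg and Emcn had no read, to 218 ± 153 CPM (n = 4) in embryo RFP+ cells, to 15.4 ± 11.5 CPM (n = 38) in spheroid GFP+ cells and to 48.2 ± 41.2 CPM (n = 46) in spheroid RFP+ cells. The 6 pluripotency genes were higher in spheroid GFP+ cells, at 373 ± 344 CPM, than in spheroid RFP+ cells, at 59.2 ± 102.6 CPM. A library of 10 cells is a bulk sample, in which fewer cells of a type and less RNA per cell cannot be told apart.

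Levels of different genes were compared as CPM per kilobase of exon. On that scale Efnb2 was the most abundant member in 3 of the 4 groups, at 9.69 ± 2.43 CPM per kb (SD, n = 4) in embryo RFP+ cells, 8.63 ± 2.58 (n = 38) in spheroid GFP+ cells and 18.1 ± 3.20 (n = 46) in spheroid RFP+ cells. In embryo GFP+ cells the order was led by Ephb3 at 4.02 ± 6.02 CPM per kb (n = 5), whose SD exceeded its mean, and Efnb2 stood at 1.30 ± 2.76. The most abundant receptor per length was Ephb4 in spheroid RFP+ cells, at 7.44 CPM per kb, and in embryo RFP+ cells, at 5.78. In spheroid GFP+ cells Ephb4, at 3.20, and Ephb3, at 3.03 CPM per kb, were level within their spread. Summed over both ligands, CPM per kb came to 20.6 ± 3.57 in spheroid RFP+ cells against 9.80 ± 2.74 in spheroid GFP+ cells. The 5 receptors summed to 12.4 ± 3.07 against 7.49 ± 2.92 CPM per kb.

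**Figure D1:**
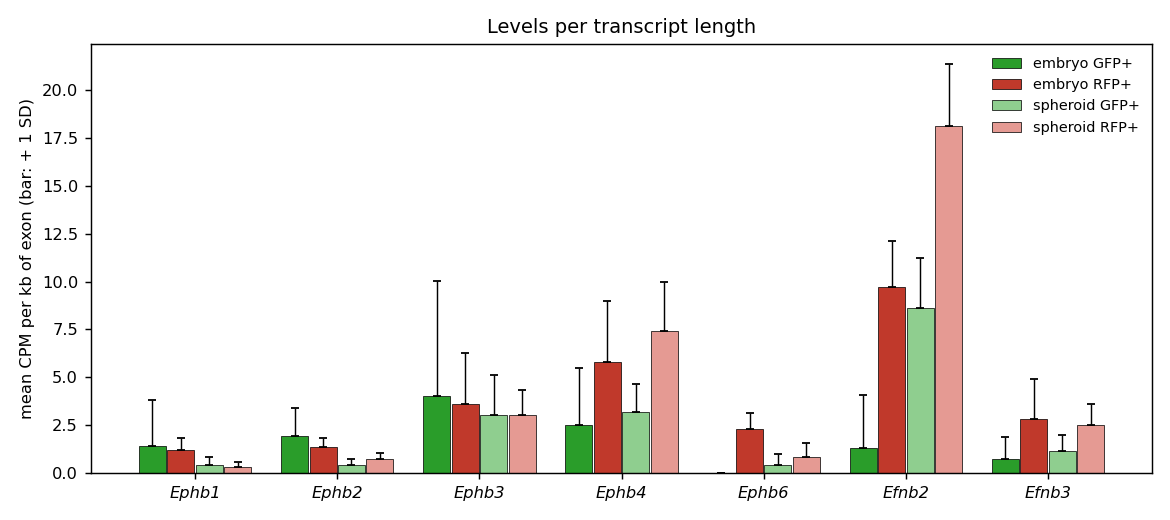
Mean CPM per kb of exon (y axis, linear, from 0) of each member in embryo GFP+ (n = 5), embryo RFP+ (n = 4), spheroid GFP+ (n = 38) and spheroid RFP+ libraries (n = 46); error bars show + 1 SD. Efnb2 reached 18.1 CPM per kb in spheroid RFP+ cells, and Ephb1 stayed below 1.5 CPM per kb in all 4 groups.

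Efnb2 (chr8:8617434-8661242, minus strand; GENCODE M21 on GRCm38, as for every gene position here) encodes ephrin-B2, the arterial ligand. In embryo GFP+ libraries A12, B12, C12, D12 and E12 its levels were 0, 42.7, 0, 1.86 and 0 CPM. In embryo RFP+ libraries F12, G11, G12 and H11 they were 65.6, 84.5, 44.4 and 71.3 CPM. Each RFP+ library lay above each GFP+ library, with little distance between the highest GFP+ and the lowest RFP+ value. In spheroids, GFP+ libraries ran from 0 CPM in well C9, or from 31.7 CPM without it, over a median of 58.0 to 91.1 CPM, and RFP+ libraries from 82.6 over a median of 125 to 167 CPM. Of the 46 RFP+ libraries 42 lay above the highest GFP+ library and all 46 lay above the GFP+ median.

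Ephb4 (chr5:137350109-137378669, plus strand), the venous receptor of ephrin-B2, was found in 3 of the 5 embryo GFP+ libraries, at 14.2, 10.0, 33.6, 0 and 0 CPM in the same well order as above. Embryo RFP+ libraries had 25.8, 38.03, 5.98 and 37.5 CPM. The 2 groups overlapped, since the RFP+ library of well G12 lay below all 3 GFP+ libraries that had reads. Spheroid GFP+ libraries ran from 0, or 4.72 CPM without well C9, over a median of 13.9 to 32.3 CPM, and RFP+ libraries from 16.6 over 31.9 to 69.6 CPM. Every spheroid RFP+ library exceeded the GFP+ median and 23 of 46 exceeded the highest GFP+ library. The 3′ end of Ephb4 overlaps Zan on the opposite strand, and whether the counting used strand is not given in the sources used here.

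Ephb2 (chr4:136647539-136835988, minus strand) encodes a receptor for ephrin-B ligands that also binds the A-type ligand ephrin-A5. It was the member found in most embryo GFP+ libraries, at 26.2, 12.6, 0, 47.8 and 34.97 CPM. Embryo RFP+ libraries had 16.9, 9.15, 20.5 and 21.6 CPM, inside the range of the GFP+ libraries. Spheroid levels were lower, from 0 over a median of 5.06 to 13.2 CPM in GFP+ libraries and from 3.08 over 8.99 to 20.6 CPM in RFP+ libraries. They overlapped widely, although 42 of 46 RFP+ libraries lay above the GFP+ median.

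Ephb3 (chr16:21204755-21223305, plus strand), a receptor partly redundant with EphB2, was uneven in embryo GFP+ libraries, at 89.5, 44, 0, 0 and 0 CPM. Embryo RFP+ libraries had 43.5, 21.1, 0.854 and 29.5 CPM, so the groups overlapped and well G12 again had the lowest RFP+ value. Spheroid GFP+ libraries ran from 0, or 3.41 CPM without well C9, over a median of 16.3 to 62.4 CPM, and RFP+ libraries from 3.71 over 19.2 to 41.9 CPM. The 4 group means lay between 20.1 and 26.7 CPM, and no neighbours in that order differed beyond their spread.

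Ephb1 (chr9:101922128-102354693, minus strand), a receptor known from axon guidance, was rare. Embryo GFP+ libraries had 39.3, 9.15, 0, 0 and 0 CPM and embryo RFP+ libraries 8.10, 8.45, 2.56 and 13.7 CPM, with overlap between them. In spheroids the medians were 1.78 CPM in GFP+ and 2.05 CPM in RFP+ libraries, the highest values were 10.7 and 7.83 CPM, and both groups held libraries without a read.

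Ephb6 (chr6:41605482-41620509, plus strand) encodes the receptor without kinase activity. No read of it was counted in any of the 5 embryo GFP+ libraries, whereas the 4 embryo RFP+ libraries had 4.42, 12.0, 10.3 and 7.93 CPM, from 6, 17, 12 and 11 reads. The groups did not overlap, and each RFP+ library lay above each GFP+ library for 11.9% of 15111 genes with a read in embryos. By counting error alone, a count of 0 allows up to 3 reads per library, or a mean of 2.58 CPM in embryo GFP+ cells. The RFP+ mean of 8.64 ± 3.27 CPM (SD, n = 4) was 3.35 times that limit. This limit covers counting error only, since the reads carry no molecular identifiers. It does not bound the level in this group, where genes with a mean of 8 to 25 CPM had no read in a median of 3 of the 5 libraries. In spheroids the median was 0 CPM in GFP+ libraries, with a highest value of 8.38 CPM, and 2.58 CPM in RFP+ libraries, with a highest value of 12.5 CPM.

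Efnb3 (chr11:69554092-69560205, minus strand) encodes ephrin-B3. Embryo GFP+ libraries had 8.74, 0, 2.49, 0 and 0 CPM and embryo RFP+ libraries 2.21, 6.34, 17.9 and 9.37 CPM, with overlap. In spheroids GFP+ libraries ran from 0 over a median of 3.53 to 10.1 CPM and RFP+ libraries from 1.01 over 7.95 to 16.7 CPM. Of the 46 RFP+ libraries 42 exceeded the GFP+ median and 9 exceeded the highest GFP+ library.

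Set in order by group mean, Efnb2 was lowest in embryo GFP+ cells, at 8.91 ± 18.9 CPM (SD, n = 5), and highest in spheroid RFP+ cells, at 124 ± 21.97 CPM (n = 46). Between them lay spheroid GFP+ cells at 59.2 ± 17.7 CPM (n = 38) and embryo RFP+ cells at 66.5 ± 16.7 CPM (n = 4), which did not differ beyond their spread. Ephb4 had the same order of groups, from 11.6 ± 13.8 over 14.9 ± 6.63 and 26.8 ± 14.99 to 34.5 ± 11.8 CPM, and each group was within the spread of its neighbours. Ephb2 ran the other way between sources, from 5.33 ± 3.85 CPM in spheroid GFP+ and 9.46 ± 3.86 CPM in spheroid RFP+ cells to 17.1 ± 5.63 CPM in embryo RFP+ and 24.3 ± 18.7 CPM in embryo GFP+ cells. Ephb1 was likewise lower in spheroids, at 2.27 ± 1.86 CPM in RFP+ and 2.91 ± 2.84 CPM in GFP+ cells, than in embryos, at 8.20 ± 4.55 and 9.69 ± 17.03 CPM. For both receptors the 2 embryo groups overlapped within their SDs, as did the 2 spheroid groups. The RFP+ groups led for Ephb6, with 8.64 ± 3.27 CPM in embryos and 3.12 ± 2.75 CPM in spheroids against 0 and 1.58 ± 2.23 CPM in GFP+ cells. They also led for Efnb3, with 8.96 ± 6.66 and 7.91 ± 3.54 CPM, which did not differ beyond their spread, against 2.24 ± 3.79 and 3.71 ± 2.55 CPM.

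**Figure D2:**
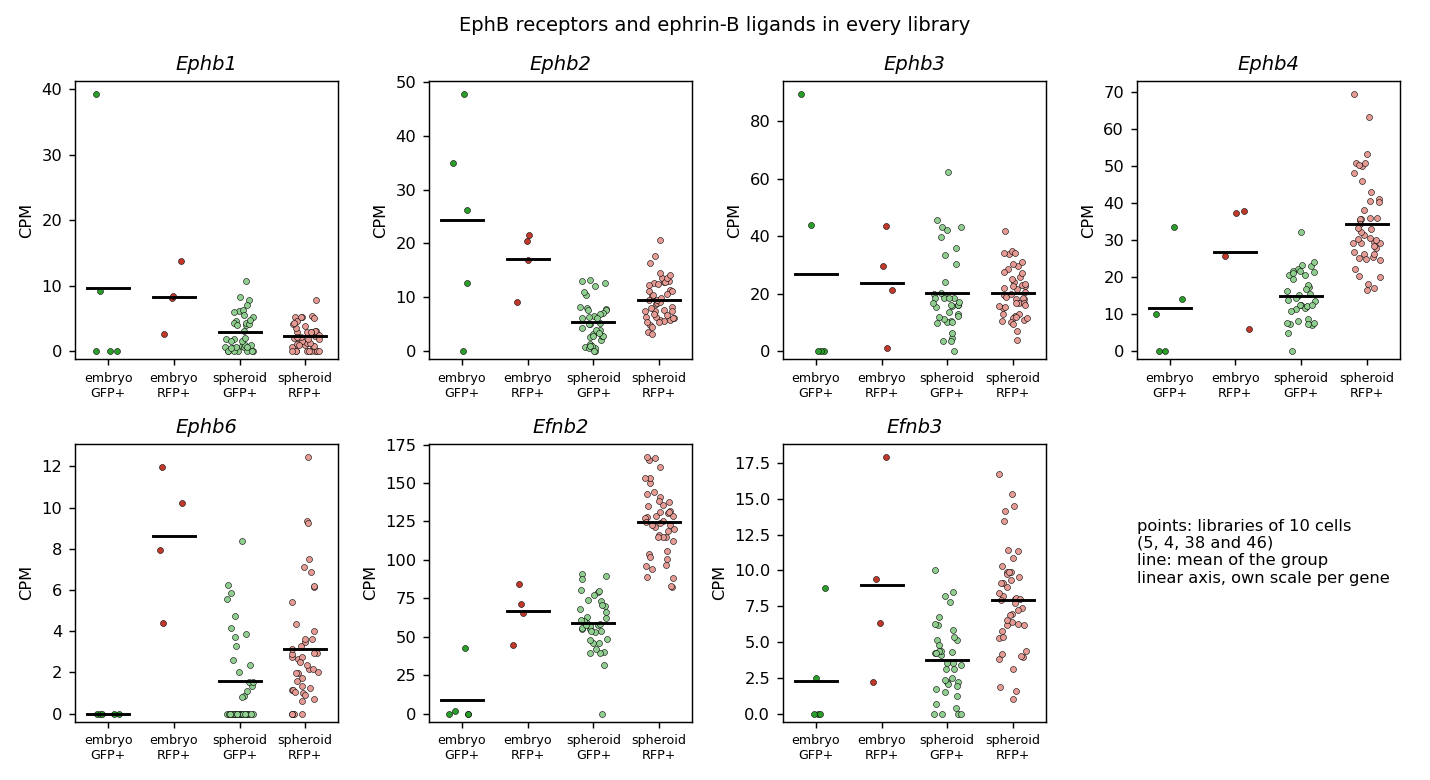
CPM (y axis, linear, a separate scale for each gene) of each member in every library of the 4 groups; points are libraries of 10 cells and the line is the group's mean. Efnb2 in spheroid RFP+ libraries lay between 82.6 and 167 CPM, against at most 91.1 CPM in spheroid GFP+ libraries, and embryo GFP+ libraries scattered from 0 upward for each member except Ephb6, which was at 0 in all 5.

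Embryo GFP+ and RFP+ cells were compared to ask whether the family differs between the heart fields in vivo. edgeR's quasi-likelihood test with Benjamini-Hochberg adjustment called none of the 5 members that passed the filter on low counts at an adjusted p under 0.1, and 0 of them had an unadjusted p under 0.05, while 10.1% of 8503 genes tested were called. Ephb6 and Efnb3 did not pass the filter. The fitted change of Efnb2 was 2.84 (SE 1.72) on the log2 scale toward RFP+ cells, with an adjusted p of 0.526 in edgeR. It rested on well B12, the GFP+ library with 42.7 CPM: without it the change was 6.62 and the adjusted p 0.0223. For Ephb4 the fitted log2 change was 1.15 (SE 1.6), and for Ephb1, Ephb2 and Ephb3 it lay between -0.55 and -0.17, with SEs of 1.39 to 1.91 that leave a severalfold difference either way possible.

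Without the filter, edgeR called 1 member, Ephb6, with an adjusted p of 0.0500, where 13.2% of all genes were called, and DESeq2 also called 1, Ephb6, with an adjusted p of 0.00251, where 17.7% were called. Two-sided exact permutation tests on log2 CPM gave an unadjusted p of 0.00794 for Ephb6, the smallest that 5 against 4 libraries allow. The same exact permutation test gave 0.0159 for Efnb2, 0.0714 for Efnb3 and 0.190 to 0.944 for the other 4. Ephb6 and Efnb2 were the members in which each RFP+ library lay above each GFP+ library, 2 of 7, and 11.9% of 15111 genes with a read in embryos had that pattern. Markers of other cells also differed between the groups: the endothelial sum ran from 68.3 to 431 CPM in RFP+ libraries and from 0 to 92.1 CPM in GFP+ libraries, and 1 RFP+ library held 1165 CPM of the 6 blood genes. In RFP+ libraries somite genes summed to 23.9 to 89.7 CPM, endoderm genes to 0.721 to 176 CPM and neural genes to 16.9 to 67.8 CPM. In GFP+ libraries the somite and endoderm sums were 0 and the neural sum was at most 7.64 CPM. The cardiomyocyte sum went the other way, as given above. The part of all these markers in the Efnb2 and Ephb6 values was not tested.

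**Figure D3:**
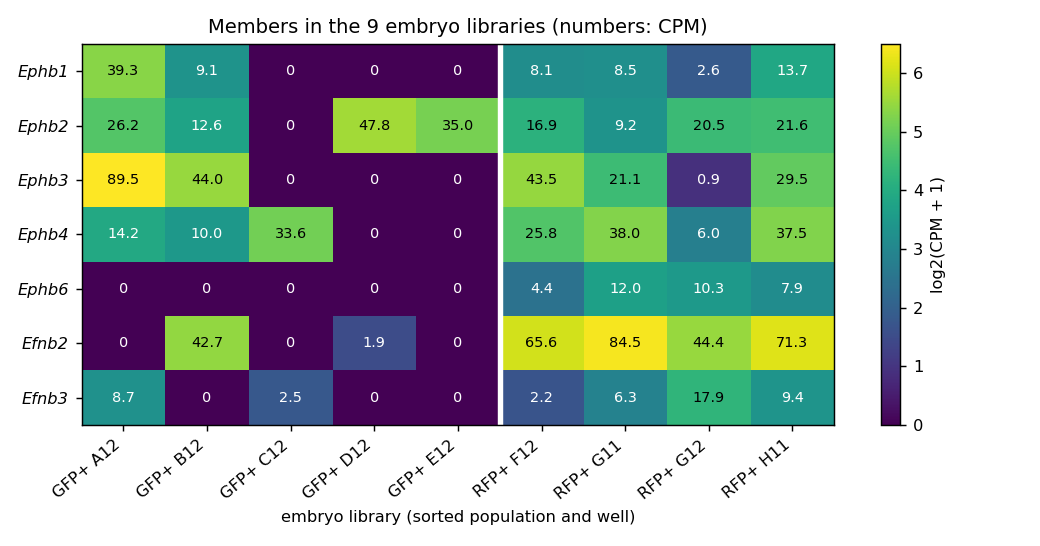
CPM of the 7 members (rows) in the 5 GFP+ and 4 RFP+ embryo libraries (columns, named by well); colour gives log2(CPM + 1) and the numbers give CPM. All 7 members had reads in each of the 4 RFP+ libraries, whereas GFP+ libraries held 1 to 5 of the 7.

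The number of members with at least 1 read described the same contrast. Embryo GFP+ libraries held reads of 1 to 5 members (median 2), and all 4 embryo RFP+ libraries held all 7. Over all genes, too, embryo GFP+ libraries detected fewer, 6189 to 8302 against 10263 to 13052. Genes with a mean of 8 to 25 CPM had no read in a median of 3 embryo GFP+ libraries and of 0 embryo RFP+ libraries. The 2 GFP+ libraries with 5 members were A12 and B12, whose totals were 979550 and 2525460 reads, while D12, with 2267669 reads, held 2 members. In spheroids all 7 members were found in 16 of 38 GFP+ and 33 of 46 RFP+ libraries. Ephb6 was found in 0 of 5 embryo GFP+ and 4 of 4 embryo RFP+ libraries, with p = 0.00794 in Fisher's exact test, two-sided and unadjusted among 28 such tests. The wider pattern of each RFP+ library above each GFP+ library held for 11.9% of 15111 genes with a read in embryos. In spheroids Ephb6 was found in 18 of 38 GFP+ libraries, or 47.4% (exact 95% binomial interval 30.98% to 64.2%), and in 41 of 46 RFP+ libraries, or 89.1% (76.4% to 96.4%), with p = 3.7e-05 in Fisher's exact test. After each library had been thinned to 400000 reads, Ephb6 was found in 15 of 37 GFP+ and 29 of 46 RFP+ libraries. Efnb3 was found in 34 of 38 spheroid GFP+ and 46 of 46 RFP+ libraries (p = 0.0383, Fisher's exact test). Well C9, with 6288 reads, was among the GFP+ libraries without it. Leaving C9 out gave 34 of 37 GFP+ libraries, for which the test was not run. Ephb1, in contrast, was found in 81.6% and 80.4% of spheroid GFP+ and RFP+ libraries.

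**Figure D4:**
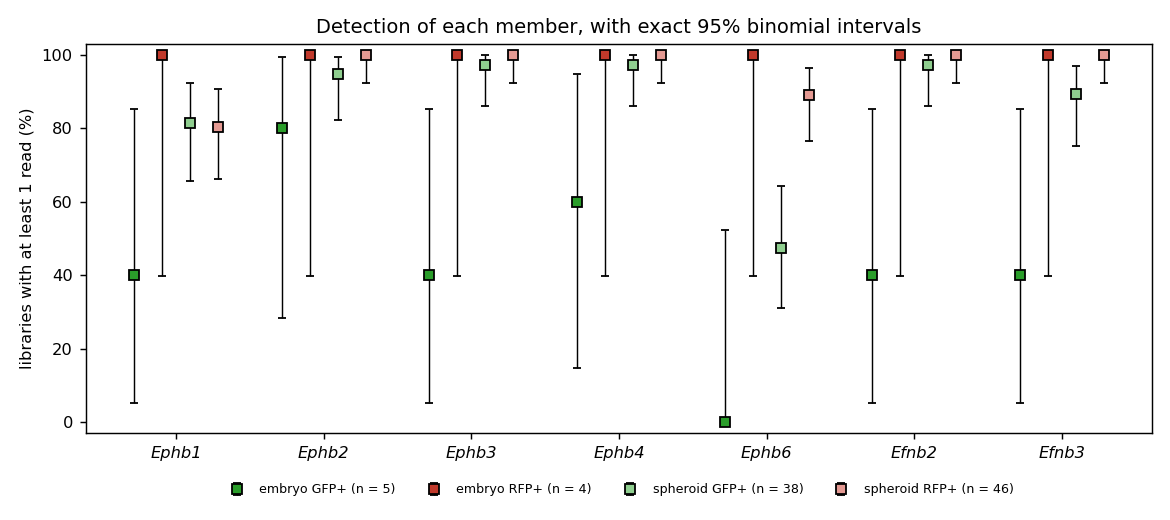
Percent of libraries with at least 1 read (y axis) of each member in the 4 groups, with exact 95% binomial intervals as bars. Ephb6 ran from 0% of 5 embryo GFP+ libraries over 47.4% and 89.1% of the spheroid GFP+ and RFP+ libraries to 100% of 4 embryo RFP+ libraries.

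In spheroids, where 38 GFP+ and 46 RFP+ libraries were compared to ask the same of cells grown in vitro, 4 of the 5 members tested were called and all 4 rose in RFP+ cells. Over all 9940 genes tested, edgeR called 77.9%, and 37.8% were called higher in RFP+ cells. The members' share of calls in either direction was thus near that of all genes. Both ligands rose. Efnb2 rose by a log2 of 0.99 (SE 0.07), or 1.99-fold, with an edgeR adjusted p of 1.7e-24, and Efnb3 rose by 1.00 (SE 0.20), or 2.00-fold, with an adjusted p of 6.7e-06. With the near-identical wells summed, Efnb3 no longer passed the filter and 3 members were called. Among the receptors, Ephb4 rose by 1.11 (SE 0.12), or 2.16-fold, with an edgeR adjusted p of 3.6e-14, and Ephb2 by 0.74 (SE 0.19), or 1.67-fold, with an adjusted p of 0.000487. The median log2 change was 0.99 over the 5 members tested and -0.02 over all genes tested.

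Ephb3 was the member tested that was not called. Its log2 change was -0.07 (SE 0.16; 95% interval -0.39 to 0.25), with an edgeR adjusted p of 0.705, and the fitted changes of the 4 called members lay outside its interval. Ephb1 and Ephb6 did not pass the filter. Without a filter, where edgeR called 60.1% of 21827 genes, Ephb6 rose by a log2 of 0.89 (SE 0.39; adjusted p 0.0481) and Ephb1 changed by -0.35 (SE 0.34; adjusted p 0.375). A permutation test with 100000 resamples on log2 CPM gave an unadjusted p of 1e-05, the smallest it can give, for Efnb2, Efnb3, Ephb2 and Ephb4, 0.0005 for Ephb6, 0.266 for Ephb3 and 0.611 for Ephb1.

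The changes of the ligands and of Ephb4 recurred over the plate. In each of the 8 plate rows, the mean log2 CPM of Efnb2, Ephb4 and Efnb3 was higher in RFP+ than in GFP+ wells, by 0.63 to 1.43 for Efnb2, 0.80 to 1.63 for Ephb4 and 0.56 to 1.32 for Efnb3, with well C9 left out. For Ephb2 this held in 7 of 8 rows and for Ephb3 in 4 of 8. Endothelial, somite and pluripotency markers also differed between the populations, the somite sum being 114 ± 26.2 CPM in RFP+ and 11.1 ± 9.19 CPM in GFP+ cells. Within each population, the rank correlation of Efnb2 with the endothelial sum was 0.03 over 37 GFP+ libraries and -0.03 over 46 RFP+ libraries, and that of Ephb4 was -0.03 and 0.06. Other marker sums gave larger values. Efnb2 had a rank correlation of 0.46 with 6 pharyngeal and second heart field genes in RFP+ libraries (-0.01 in GFP+), and of 0.40 with the cardiomyocyte sum in GFP+ libraries (0.08 in RFP+). Ephb4 had one of 0.49 with the blood sum in GFP+ libraries (0.01 in RFP+), and of -0.31 with the pharyngeal sum in RFP+ libraries (-0.06 in GFP+). The blood sum was low in spheroid GFP+ libraries, at 4.35 ± 5.05 CPM (SD), and its globin genes Hbb-bh1 and Hbb-y had no read there. Over all 8 marker lists and both populations, the values of Efnb2 and Ephb4 ran from -0.31 to 0.49, and the part of these markers in the difference between populations was not tested. These are descriptions over wells that share a plate and differ in depth.

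**Figure D5:**
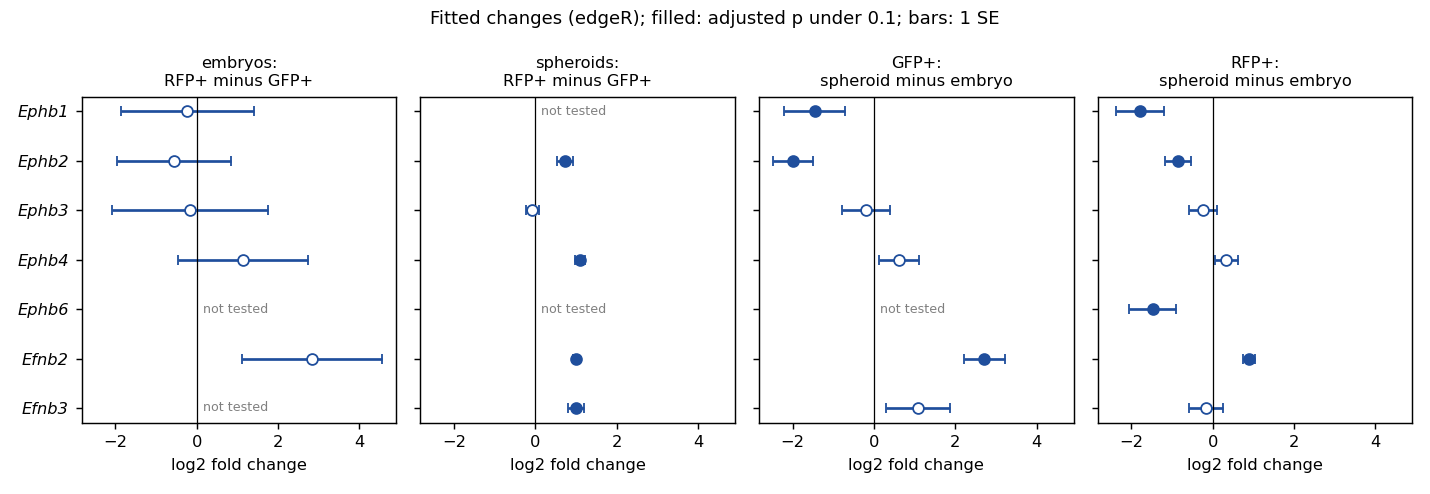
Log2 fold change from edgeR (x axis, same scale in the 4 panels) of each member in the 4 comparisons, with bars of 1 SE; filled points had an adjusted p under 0.1, and members that did not pass the filter are marked as not tested. The 4 filled points in spheroids lie between 0.74 and 1.11, and Ephb1 and Ephb2 lie below 0 in both comparisons of spheroids with embryos.

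GFP+ cells of spheroids and embryos were then compared to ask how far the cells grown in vitro match those of the embryo. Source and plate column cannot be told apart here, since all 5 embryo GFP+ libraries were in column 12 and the spheroid GFP+ libraries in columns 7 to 11. edgeR called 3 of 6 members tested. It called 68.0% of 11822 genes, 48.3% higher in spheroids and 19.7% lower, and the median log2 change of all genes tested was 0.67. Efnb2 was higher in spheroid GFP+ cells by 2.71 (SE 0.51), with an edgeR adjusted p of 9.3e-06, and 32 of 38 spheroid libraries lay above the highest embryo library. Its size rested on well B12, without which the change was 6.37 with an adjusted p of 5.6e-16. Ephb2 fell by 1.98 (SE 0.49), with an adjusted p of 0.000543, and Ephb1 fell by 1.46 (SE 0.75), with an adjusted p of 0.0846. The Ephb1 call rested on well A12, which held 39.3 CPM: without this embryo library the change was 0.34 with an adjusted p of 0.770, and without B12 it was -1.41 with 0.136. Ephb4 and Efnb3 had log2 changes of 0.62 (SE 0.49) and 1.08 (SE 0.78), near the median of all genes, and Ephb3 one of -0.19 (SE 0.59). Ephb4 was called higher in spheroids without well C12, at 1.49, and Efnb3 without well A12, at 3.07. With DESeq2's size factors in edgeR the median of all genes moved to 0.22 and the share of calls that were higher in spheroids from 71.1% to 57.4%, and the signs of the 6 members were kept.

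RFP+ cells of spheroids and embryos, which share no library with the preceding comparison, gave 4 calls among all 7 members. Source and plate column again cannot be told apart, with embryo RFP+ libraries in columns 11 and 12 and spheroid RFP+ libraries in columns 1 to 6. Of 11147 genes edgeR called 42.6%, with 22.5% higher and 20.1% lower in spheroids. Efnb2 was higher in spheroids by 0.89 (SE 0.16), with an edgeR adjusted p of 5.4e-06, and 44 of 46 spheroid libraries exceeded the highest embryo library. The other 3 calls were receptors that fell. Ephb1 fell by 1.80 (SE 0.59; edgeR adjusted p 0.0135), and all 46 spheroid libraries were below the embryo median. Ephb6 fell by 1.47 (SE 0.58; adjusted p 0.0409) and Ephb2 by 0.86 (SE 0.32; adjusted p 0.0283), and 43 and 45 of the 46 spheroid libraries lay below the embryo median. Each of these 3 calls was lost without 1 embryo library, Ephb1 without H11 (adjusted p 0.118), Ephb2 without G12 or H11 (0.110 and 0.131) and Ephb6 without G11 or G12 (0.155 and 0.119). Ephb3, Ephb4 and Efnb3 had log2 changes of -0.24 (SE 0.34), 0.34 (SE 0.28) and -0.17 (SE 0.41), with 95% intervals of -0.92 to 0.43, -0.21 to 0.88 and -0.97 to 0.64.

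The RFP+ against GFP+ change was also compared between embryos and spheroids directly, as the difference of both log2 changes over their SEs. None of the 4 members tested was called, against 5.26% of 8182 genes. The difference for Efnb2, spheroid change minus embryo change, was -1.85 (SE 1.72; adjusted p 0.845), that for Ephb2 1.29 (SE 1.40; 0.884), that for Ephb3 0.09 (SE 1.92; 0.995) and that for Ephb4 -0.04 (SE 1.61; 0.997). All 4 had an unadjusted p above 0.05, the lowest being 0.318, and SEs of this size leave large differences undetected. One edgeR fit over all 4 groups, which assumes that the embryo libraries vary like the spheroid libraries, called 3 members, Ephb6, Efnb2 and Ephb2, with adjusted p of 0.00159, 0.000763 and 0.0925, but this fit called 54.4% of 12655 genes.

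Ligands and receptors outside the 7 members that bind to them were Efnb1, an X-linked gene for ephrin-B1, Epha4, a receptor that binds ephrins of both classes, and Efna5, an A-type ligand that binds EphB2. In spheroids Epha4 rose by 1.52 (SE 0.11), from 29.2 ± 15.5 to 89.2 ± 19.3 CPM, with an edgeR adjusted p of 8.8e-23, and Efnb1 rose by 1.61 (SE 0.20), from 3.70 ± 2.94 to 12.1 ± 5.18 CPM (adjusted p 1.2e-11). Efna5 fell by 0.47 (SE 0.08), from 124 ± 32.1 to 93.4 ± 26.1 CPM (adjusted p 2.5e-07). In embryos edgeR called 0 of the 2 that passed the filter. One of them, Efna5, had an unadjusted p under 0.05, at a log2 change of 2.58 (SE 0.98; adjusted p 0.172), and DESeq2 called it. Between sources Efna5 was higher in spheroids among GFP+ cells, by 2.29 (SE 0.33), and lower among RFP+ cells, at -0.89 (SE 0.18), the embryo levels being 28.3 ± 22.8 CPM in GFP+ and 173 ± 64.9 CPM in RFP+ cells.

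Forward signalling was represented by 26 genes, such as adaptors, guanine nucleotide exchange factors and kinases of the cytoskeleton. In spheroids edgeR tested 22 of them, called 9 higher and 8 lower in RFP+ cells, and their median log2 change was 0.00. The share called, 77.3%, was near that of all genes. Cfl1, the actin-severing protein cofilin, rose by 0.76 (SE 0.04), and Abl1 rose by 0.90 (SE 0.09). Abl2, a relative of Abl1, fell with a log2 change of -0.82 (SE 0.08), and the cytoskeletal kinase Rock2 fell with one of -0.74 (SE 0.08). In embryos 1 of 20 rose and 1 fell: Cfl1 at 0.79 (SE 0.22; edgeR adjusted p 0.0405) and the small GTPase Rhoa at -1.16 (SE 0.34; adjusted p 0.0594). DESeq2 called 5, with Rhoa among them and Cfl1 not. The share called by edgeR in embryos, 10.0%, was again near that of all genes. In RFP+ cells 3 of 23 tested were higher in spheroids, Rock1, Rasa1 and Wasl, by 0.52 to 0.71, a share of 13.04% where 42.6% of all genes were called. In GFP+ cells 11 of 23 were higher and 3 lower, 60.9% against 68.0% of all genes.

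Reverse signalling, described by 12 genes for adaptors and kinases that meet the ephrin-B tail, had 8 genes tested in spheroids, of which 3 rose and 5 fell in RFP+ cells, while 77.9% of all genes were called there. Grip1, a PDZ-domain protein that binds ephrin-B, fell from 58.8 ± 19.3 CPM in GFP+ to 14.3 ± 6.41 CPM in RFP+ cells, a log2 change of -2.12 (SE 0.12; edgeR adjusted p 4.6e-30). Ptpn13, a phosphatase that acts on ephrin-B, rose by 0.75 (SE 0.10). In embryos edgeR called 0 of 6 tested, and 0 had an unadjusted p under 0.05, while DESeq2 called 2 genes, Dvl2 and Src. Rgs3, which regulates G proteins from the ephrin-B tail, was lower in spheroid than in embryo RFP+ cells, at 2.02 ± 1.72 against 16.1 ± 9.85 CPM (log2 change -2.92, SE 0.50; adjusted p 4.3e-06). Of 11 tested in RFP+ cells, 3 were called higher and 1 lower in spheroids, 36.4% against 42.6% of all genes. Of 10 in GFP+ cells 6 were higher and 0 lower, where 48.3% of all genes were higher and 19.7% lower.

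Proteases that shed or cut Eph and ephrin proteins made up a list of 6 genes. In embryos 2 of 5 tested fell in RFP+ cells, Ncstn, a subunit of gamma-secretase, from 237 ± 80.1 to 41.4 ± 12.5 CPM (log2 change -2.58, SE 0.52; edgeR adjusted p 0.00954) and Adam10, a sheddase, from 303 ± 164 to 93.4 ± 22.3 CPM (-1.73, SE 0.44; adjusted p 0.0258). In spheroids Adam10 went the other way and rose by 0.54 (SE 0.07; adjusted p 1.5e-10), while Psen2 fell with a log2 change of -0.70 (SE 0.19) and Ncstn with one of -0.17 (SE 0.09). In GFP+ cells Ncstn, Adam10 and Aph1a were lower in spheroids, at log2 changes of -2.23 to -1.17.

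Variation among wells was examined for the 3 members with at least 10 CPM in both spheroid populations, Ephb3, Ephb4 and Efnb2. Over 46 spheroid RFP+ libraries Ephb4 and Efnb2 had a Pearson r of -0.33 and a Spearman rank correlation of -0.39, and over 37 GFP+ libraries 0.06 and -0.003. With the near-identical wells averaged, the RFP+ values were -0.28 and -0.29 over 39 points. The other pairs lay between -0.002 and 0.13. Each pair of values comes from the same libraries, whose totals and composition they share, and these correlations are weak. The genes most like Efnb2 over all 84 spheroid libraries, after the population means had been taken out, were Grcc10, Zfp207 and Spcs1 (r of 0.898 to 0.903), but the median r over 7926 genes was 0.553, and without well C9 these 3 had r of 0.213 to 0.311. For Ephb4 they were Anln, Oat and Bax (r of 0.672 to 0.678, and 0.342 to 0.377 without C9), and for Ephb3 Blvrb, Sh3bgrl3 and Gstm2 (0.599 to 0.633, and 0.407 to 0.456). Without C9, in a ranking chosen after the data had been seen, Thap4 was first for Ephb4 (r = 0.403) and Guk1 for Ephb3 (r = 0.521), against a 99th percentile of 0.281 to 0.304 over all genes compared.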

How the data were processed

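RNA of 10 sorted cells per well was sequenced. The authors trimmed reads with Trimmomatic 0.36, mapped them to mm10 with HISAT2 2.0.4 and counted them with featureCounts 1.5.2, and deposited 1 table of whole counts per gene without normalization. Their gene annotation and any use of strand are not given in the sources used here. Groups came from sample titles, and every library was kept.

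Tests were run with edgeR 4.0.16 under R 4.3.3 (TMM, filterByExpr with minimum count 10, quasi-likelihood F-test, each comparison fitted on its own 2 groups) and DESeq2 1.42.0 as an alternative. P-values were adjusted over all genes tested, with a threshold of 0.1. CPM use TMM over all 93 libraries. Single members were also tested by permutation on log2 CPM (prior count 2) and by Fisher's exact test, unadjusted. The difference between sources used separate SEs and 7 degrees of freedom. The fits were tested on simulated data.

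All 7 members are named. From each pathway list, up to 4 called genes of lowest adjusted p were to be named, and for members of at least 10 CPM in both spheroid populations the 3 genes of highest r. Members and lists were chosen with earlier results of these data known. Some results of the pathway and likeness lists are not reported here. Alternatives covered normalization, filter, threshold, tool, prior count, detection limit, depth, plate row and single libraries.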

Additional observations from a re-analysis of the deposited data

Results flagged for a closer look

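In 3 of 13 combinations of a member with an embryo population, 1 library stood apart from the rest of its group by Dixon's gap test at the 95% level. The test's rate of about 1 in 20 flagged by chance supposes normally distributed values, so it does not hold for groups with many zeros. All 3 flags were in embryo GFP+ cells, where genes with a mean of 8 to 25 CPM had no read in a median of 3 libraries. Ephb1 was 39.3 CPM in well A12 (gap over range 0.767), Efnb2 was 42.7 CPM in well B12 (0.956) and Efnb3 was 8.74 CPM in well A12 (0.715). In each case 3 of the other 4 libraries had no read. Ephb6, which had no read in that population, could not be examined this way.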

How the results depend on the processing

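In embryos 0 members were called by edgeR, and DESeq2 and edgeR without the filter each called 1, Ephb6. Leaving out each embryo library gave 0 to 1 calls (Efnb2 without B12 and Ephb6 without F12). In RFP+ cells, spheroid against embryo, 4 members were called, and leaving out each embryo library gave 2 to 4. In GFP+ cells it gave 2 to 4 in place of 3. For the difference between sources the count was 0, again 0 without each embryo library, and 3 with one fit over the 4 groups. All other counts of members called, those in spheroids included, stayed within 1.5 times under the alternatives run. With the near-identical wells summed, 3 members were called in spheroids in place of 4, since Efnb3 no longer passed the filter. Leaving out 1 embryo library changed the sign of several log2 changes, none of them called except Ephb1 in GFP+ cells. Over these fits the log2 change in embryos ran from -0.57 to 1.70 for Ephb1 and from -0.62 to 1.07 for Ephb3. In GFP+ cells it ran from -1.83 to 0.34 for Ephb1 and from -0.56 to 0.90 for Ephb3, and in RFP+ cells from -0.63 to 0.21 for Ephb3 and from -0.49 to 0.41 for Efnb3. The difference in mean log2 CPM of Ephb2 in embryos ran from -0.71 to 0.63. For the share of spheroid libraries with Ephb1, the RFP+ minus GFP+ difference became 3.43 percentage points at 3 reads and 4.64 after thinning. The cause of these changes was not tested. In embryo GFP+ libraries 3 reads were worth 1.19 to 4.21 CPM, which limits what a count of 0 can show. No paired analysis was possible because the labels give wells, not replicate numbers that join the groups. With plate row as a covariate in spheroids, 4 members were called.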
